A study of Mus musculus with 4 samples.

Results

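Interferon regulatory factors (IRFs) and signal transducers and activators of transcription (STATs) were followed through 9 genes, Irf1, Irf2, Irf3, Irf5, Irf7, Irf9, Stat2, Stat3 and Stat6, in peritoneal macrophages with and without CD13. The genes were chosen by name, and every probe whose annotated symbol was a member was taken, which gave 19 of the 45281 probes on the array. A probe counted as measured when its detection p-value, the chance of such a signal on background beads, was under 0.01 on at least 2 arrays. By that rule 18 probes and all 9 genes were measured, among 10335 genes and unnamed probes tested. The wild type group and the CD13 knock out group had 2 arrays each, one sample per array, named WT 1, WT 2, KO 1 and KO 2 below. Both groups were of strain C57BL/6, and the cells were resting, with no treatment recorded in the labels. Every sample is labelled as peritoneal macrophages, while the series text also mentions macrophages grown from bone marrow and does not tie either source to an array. CD13 is a cell-surface aminopeptidase encoded by Anpep. The labels give no age or sex, do not say how the deletion was made, and do not say how many animals were behind an array, so the p-values below rest on array-to-array spread that may be purely technical.

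In macrophages, IRFs and STATs carry signals from pathogen sensors and cytokine receptors to the genome. Sensor pathways activate Irf3, Irf5 and Irf7 by phosphorylation, and these factors turn on interferon and inflammatory cytokine genes. Secreted type I interferon then activates a complex of Stat2, Irf9 and another STAT, called ISGF3, which binds the interferon-stimulated response element (ISRE) of antiviral genes, Irf7 and Irf9 among them. STAT dimers instead bind gamma-activated sites (GAS). Stat3 acts downstream of interleukins 6 and 10, and Stat6 downstream of interleukins 4 and 13. All of these proteins are switched by modification as well as by their amount, and the arrays measure only their transcripts.

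The factors are also each other's targets, so the promoters of the 9 genes were searched for the letters of their binding elements in the 300 bases that RefSeq (GRCm38.p6) gives around each start, from 250 bases before it to 50 from it. All 9 genes matched, with 11 promoters. The search covered both strands for the ISRE core (GAAA, any 2 bases, GAAA, which reads TTTC, any 2 bases, TTTC on the opposite strand), the GAS core TTCNNNGAA, its wider form with 4 free bases between TTC and GAA, which Stat6 favours, and the TATA box TATAAA. Of the 32851 promoters in the RefSeq table, 3.44% held the ISRE core, 8.30% the GAS core, 6.95% the wider form and 13.6% the TATA box. Counted over 27025 genes, the shares were 3.99%, 9.55%, 8.01% and 15.7% in the same order. The share of genes with any of these elements was not computed. Matches of any kind were found in 5 of the 9 genes. The ISRE core was found in 2 members, the GAS core in 2, the wider form in 2 and the TATA box in 1. That 1 was Irf7, whose only match was the TATA box, which is not an element of these factors. In Irf1 and Irf9, which have 2 promoters each, only 1 of the 2 held a match. The ISRE and GAS matches are shown because they are the letters that these factors recognise, in the genes that encode them. The TATA box of Irf7 is printed as the only match of that gene. Matches are in capitals, and the gene's own strand is written 5′ to 3′.
Irf1, chr11:53769899-53769957, plus strand: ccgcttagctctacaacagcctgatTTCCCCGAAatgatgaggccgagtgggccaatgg
Irf2, chr8:46739495-46739554, plus strand: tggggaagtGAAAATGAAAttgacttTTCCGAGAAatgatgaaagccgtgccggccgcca
Irf7, chr7:141266423-141266478, minus strand: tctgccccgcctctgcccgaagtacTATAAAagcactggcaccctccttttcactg
Irf9, chr14:55603961-55604020, plus strand: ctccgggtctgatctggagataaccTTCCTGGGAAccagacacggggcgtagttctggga
Stat2, chr10:128270251-128270322, plus strand: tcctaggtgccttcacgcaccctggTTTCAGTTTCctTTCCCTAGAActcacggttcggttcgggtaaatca
The GAS core of Irf1 lay 90 to 82 bases before the start. Irf2 held an ISRE core 241 to 232 bases before the start and a GAS core 224 to 216 bases before it. Stat2 held an ISRE core on the opposite strand, 222 to 213 bases before the start, and the wider GAS form 210 to 201 bases before it, and the matches did not overlap in either gene. The wider form in Irf9 began at base 2 after the start, and Irf7 held a TATA box 29 to 24 bases before its start. No match of these letters lay in the windows of Irf3, Irf5, Stat3 and Stat6. Irf7 and Irf9, named above as targets of ISGF3, held no ISRE core of these letters in their windows. A match describes the sequence and does not show that a factor was bound.

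Non-normalized arrays differed in brightness, with median signals of 167.1 and 127.6 on WT 1 and WT 2 and 122.4 and 109.0 on KO 1 and KO 2. All levels below are therefore log2 intensities after background correction and quantile normalization, and differences are knockout minus wild type with the moderated standard error (SE) of limma, n = 2 arrays per group. Anpep, the targeted gene, had a log2 level of 13.58 on WT 1, 13.40 on WT 2, 11.12 on KO 1 and 11.03 on KO 2, so its signal went the way of the labels. It was read by 1 probe, whose place relative to the deletion is unknown here. Of 10335 genes and unnamed probes, 5 passed upward and 5 downward at a limma adjusted p under 0.05, which is 0.0968% of those tested, or 0.0484% in each direction. Under median scaling of the arrays the calls became 15 and 194, 92.8% of them lower, with a shift of -0.33 in the median of all genes. The 8 measured macrophage markers were above background on all 4 arrays, and none passed. For 5 of the 8 the knockout was lower without overlap, beside 19.1% of all genes. For 1 it was higher without overlap, beside 20.8%. Among the 5 were Adgre1 (-0.51 ± 0.20) and Csf1r (-0.40 ± 0.17), with differences of about the size of those of the factors. Cd163 (1.45 ± 0.36), Fcgr1 (0.36 ± 0.36) and Mertk (0.27 ± 0.21) had higher means, and the median of the 8 was -0.12.

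None of the 9 factors passed, and none of their 18 measured probes did when every kept probe was tested, where 0.0941% passed. Their limma adjusted p-values lay between 0.579 and 0.927, and 0 of them had an unadjusted p under 0.05, against 9.34% of all genes tested. That count depended on the processing, with 3 of the 9 under 0.05 without background correction and 3 with the authors' normalized values. It was 4 with median scaling, 2 with an intensity trend and 1 with dim probes left in. The 9.34% belongs to the main fit. The share of all genes under 0.05 was not computed for these other settings, so their counts have no background to be read against. For a value of its own, an exact two-sided permutation test of 2 arrays with 2 others cannot reach a p under 0.333. The mean was lower in knockout for 7 members and higher for Irf3 and Irf5, and the median difference of the 9 was -0.20 log2 units beside 0.01 over all genes. Among all genes, 48.2% had a lower and 51.8% a higher mean in knockout.

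**Figure D1:**
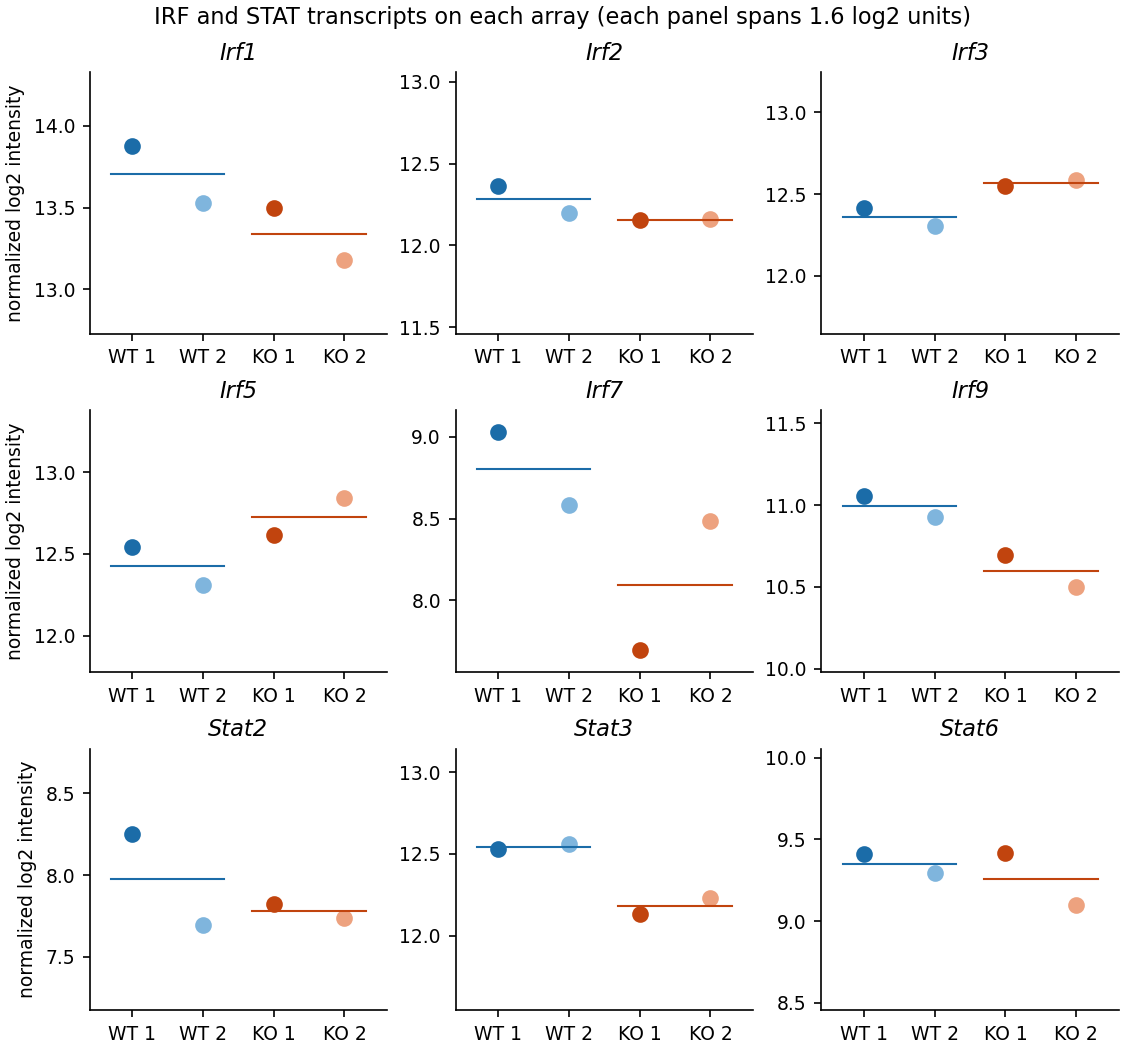
Normalized log2 intensity of each of the 9 transcripts on the 4 arrays, with points for arrays and horizontal lines for group means. The groups do not overlap for 7 genes, and Irf7 shows the widest spread within a group, from 7.70 on KO 1 to 8.49 on KO 2.

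Irf7 had the largest difference of the 9. Its protein amplifies type I interferon production once it has been induced. The level of Irf7 (probe ILMN_1227573) was 9.03 on WT 1, 8.58 on WT 2, 7.70 on KO 1 and 8.49 on KO 2. Both wild type arrays were above both knockout arrays, but KO 2 lay only 0.09 below WT 2 while KO 1 lay 0.89 below it. The difference was -0.71 ± 0.32 (SE), 1.64-fold lower in knockout, with a 95% interval of -1.51 to 0.08 (limma adjusted p = 0.579). It ranked among the largest 6.53% of all absolute differences, and it was -0.32 without KO 1 and -1.11 without KO 2. Its non-normalized signal read 855.2 on WT 1, 493.2 on WT 2, 281.0 on KO 1 and 323.7 on KO 2. Irf7 and Irf3 lie on chromosome 7, which also carries Anpep, and their differences had opposite signs.

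Irf9 and Stat2 encode the ISGF3 partners of type I interferon signalling. Irf9 (probe ILMN_1233461) had a level of 11.06 on WT 1, 10.93 on WT 2, 10.69 on KO 1 and 10.50 on KO 2. The groups did not overlap, and the gap between them was wider than the gap within either group. Its difference of -0.39 ± 0.18 (95% interval -0.85 to 0.06, limma adjusted p = 0.597) was 1.31-fold. The other Irf9 probe gave -0.09 ± 0.26 with overlapping groups, so the probes of this gene did not give the same size. Stat2 (probe ILMN_2657822) had a level of 8.25 on WT 1, 7.70 on WT 2, 7.82 on KO 1 and 7.74 on KO 2. WT 2 was the lowest of the 4 and WT 1 the highest, so the groups overlapped. The difference of Stat2 was -0.20 ± 0.24 (95% interval -0.79 to 0.39), and it was 0.08 without WT 1.

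Irf1 and Irf2 bind the same elements, Irf1 as an interferon-induced activator and Irf2 mainly as its antagonist. Irf1 (probe ILMN_2834777) had a level of 13.88 on WT 1, 13.53 on WT 2, 13.50 on KO 1 and 13.18 on KO 2. The nearest arrays of the groups, WT 2 and KO 1, were 0.03 apart, and the difference of -0.36 ± 0.22 (95% interval -0.91 to 0.18) became -0.19 without WT 1 and -0.54 without WT 2. Irf1 has 5 probes, all measured, and their differences ran from -0.46 to -0.18, so all had the same sign. All 5 were highest on WT 1, and 4 were lowest on KO 2. Irf2 (probe ILMN_1251696) had a level of 12.36 on WT 1, 12.20 on WT 2, 12.15 on KO 1 and 12.16 on KO 2. WT 2 and KO 2 were 0.04 apart, and the difference was -0.12 ± 0.17 (95% interval -0.56 to 0.31), with -0.042 without WT 1 and -0.21 without WT 2.

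Irf3 and Irf5 act early, downstream of nucleic acid sensors and Toll-like receptors, and these were the members with higher means in knockout. Irf3 (probe ILMN_2664319) had a level of 12.42 on WT 1, 12.30 on WT 2, 12.55 on KO 1 and 12.59 on KO 2. The groups did not overlap, and the difference was 0.21 ± 0.17 (95% interval -0.22 to 0.64). Of its other probes, one gave 0.17 and one gave -0.13, both with overlapping groups. Irf5 (probe ILMN_2621752) had a level of 12.54 on WT 1, 12.31 on WT 2, 12.61 on KO 1 and 12.84 on KO 2, a difference of 0.30 ± 0.19 (95% interval -0.18 to 0.78), with 0.18 without WT 2 or without KO 2. Its groups were 0.07 apart at the nearest arrays, KO 1 and WT 1. With median scaling the differences of Irf3 and Irf5 were -0.11 and -0.03, which is 0.22 and 0.30 above the shift of all genes under that scaling.

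Stat3, which transmits the anti-inflammatory signal of interleukin 10, had narrow groups. Its level (probe ILMN_2698046) was 12.53 on WT 1, 12.56 on WT 2, 12.13 on KO 1 and 12.23 on KO 2. The arrays of a group lay within 0.10 of each other, and each knockout array lay at least 0.30 below each wild type array. The difference was -0.36 ± 0.17 (95% interval -0.79 to 0.06, limma adjusted p = 0.605), 1.29-fold, and it stayed between -0.41 and -0.31 when any single array was left out. The other Stat3 probes gave -0.24 without overlap and -0.03 with overlap, the last being a probe that the annotation pairs with another Stat3 transcript record. Stat6, the factor of alternative activation, had a level (probe ILMN_2897230) of 9.41 on WT 1, 9.30 on WT 2, 9.42 on KO 1 and 9.10 on KO 2. KO 1 was the highest and KO 2 the lowest, so the groups overlapped, and the difference was -0.10 ± 0.20 (95% interval -0.58 to 0.39). The remaining Stat6 probe failed detection on every array and is the only unmeasured probe of the 19.

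**Figure D2:**
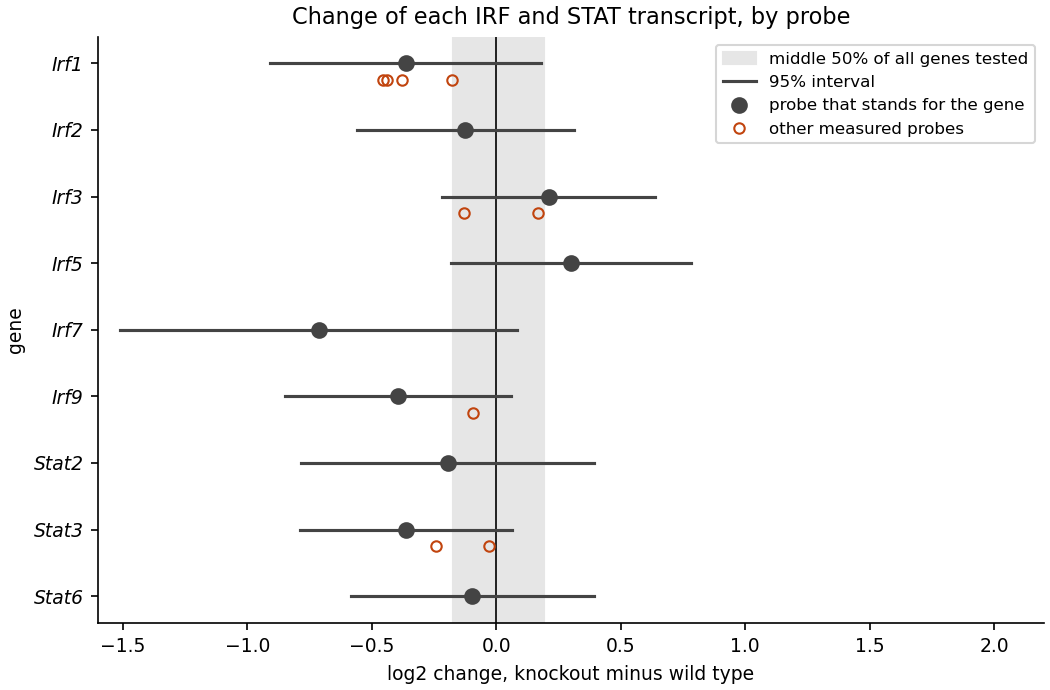
Log2 change, knockout minus wild type, of the probe that stands for each gene, with its 95% interval, and of the other measured probes of the gene, over a grey band for the middle 50% of all genes tested (-0.17 to 0.19). Every interval includes 0, and the probes of Irf1 all lie below 0 while those of Irf3 lie on both sides of it.

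Across the 9 factors, the groups did not overlap for 7, beside 39.9% of all genes tested. The knockout was lower for 5 of these, beside 19.1% of all genes, and higher for 2, beside 20.8%. No test was made over the members, which were chosen with earlier results known. Of the 18 measured probes, 15 had a lower mean in knockout, beside 48.6% of all kept probes. Probes of one gene share their samples and are not replicates.

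The members differed within the wild type group as well as between the groups. WT 1 was above WT 2 for 8 of the 9 genes, Stat3 being the exception, whereas 48.7% of all genes were higher on WT 1. By gene, 5 of the 9 were highest on WT 1, beside 19.2% of all genes, and 0 were lowest there, beside 23.0%. Of the 18 measured probes, 12 were highest on WT 1, all 5 Irf1 probes among them, and 0 were lowest there. Among all kept probes 20.7% were highest on WT 1 and 21.8% lowest. In contrast, KO 1 was above KO 2 for 4 of the 9 genes. The median difference of the members was -0.36 for KO 1 minus WT 1 and -0.31 for KO 2 minus WT 1, but -0.03 for KO 1 minus WT 2 and -0.09 for KO 2 minus WT 2. Without WT 1 the median over the members was -0.04, and without WT 2 it was -0.35. The size of the lower median of the factors in knockout thus depended on both wild type arrays, although 6 of the 9 still had a lower mean without WT 1. With 2 wild type arrays, a high WT 1 and a low WT 2 cannot be told apart. Before normalization, all 18 probes were highest on WT 1, the brightest array, and 17 were lowest on KO 2, the dimmest. The same shares over all kept probes before normalization were not computed, so this order is not a result about the members. What part brightness has in the normalized values was not tested.

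**Figure D3:**
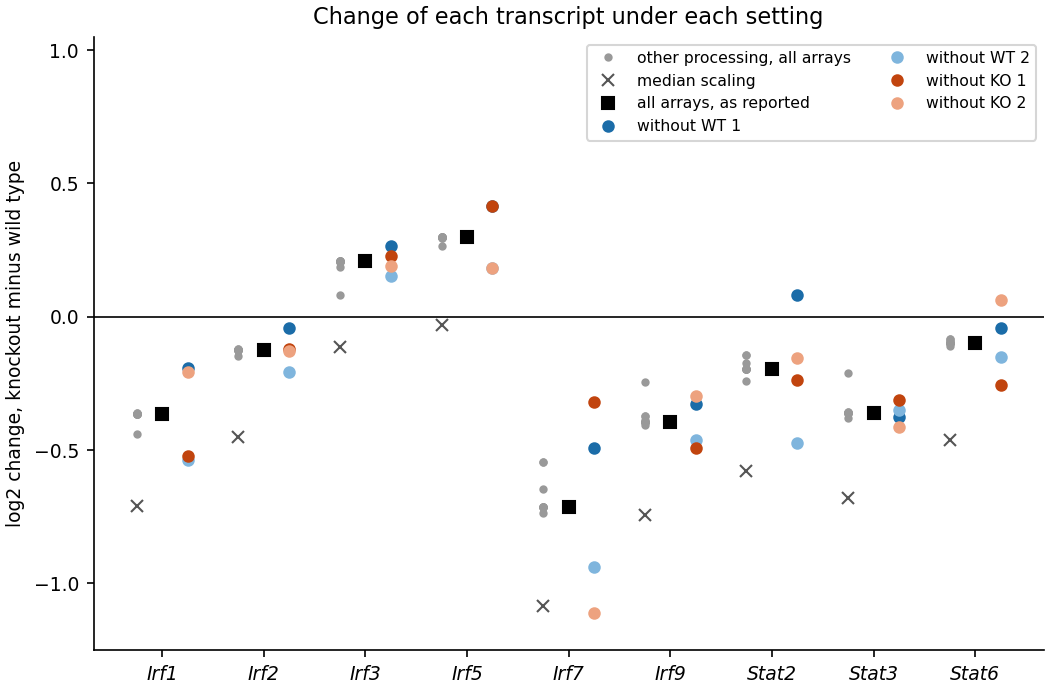
Log2 change, knockout minus wild type, of each transcript as reported, under the other processing of all arrays, and with each array left out. Stat3, Irf9, Irf1, Irf2 and Irf7 stay below 0 in every setting shown, Irf3 and Irf5 fall below 0 only with median scaling, and Stat2 and Stat6 cross 0 when WT 1 and KO 2 are left out.

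The genes whose array profile was nearest to that of Irf7 were sought over the 4 arrays, by the root mean square distance between log2 values centred on each gene's mean. The nearest were Pou2f2, a transcription factor of lymphoid and myeloid cells, at 0.05 log2 units, Heatr5a at 0.06, Osbpl3 at 0.07 and Zfp768 at 0.07, where the profile of Irf7 itself had a root mean square of 0.48. They were picked for this profile from the 8238 named genes tested, with the members left out, where near matches over 4 arrays are easily found. That each had KO 1 as its lowest array and WT 1 as its highest follows from this choice. Pou2f2, for example, had levels of 8.06 on WT 1, 7.72 on WT 2, 6.77 on KO 1 and 7.65 on KO 2, a difference of -0.68 ± 0.33 (limma adjusted p = 0.612). Zfp768 was below the detection limit on KO 1 and KO 2, where it was at least 1.22-fold lower, and Osbpl3 on 1 of these arrays, so the distances of both rest partly on values at background. Pou2f2 and Zfp768 also lie on chromosome 7.

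The question of whether the circuits around the factors differed was addressed with 9 lists of receptors, sensors, inhibitors and targets. None of their genes passed over all genes by limma. The unadjusted p was under 0.05 for 18 of 116 list entries, counting a gene again in each list that holds it, beside 9.34% of all genes. Of 7 other family genes 4 were tested, with a median difference of -0.19, or -0.11 without KO 1. Irf4, a partner of Stat6 in alternative activation, had a difference of -0.55 ± 0.17, Stat4 of -0.65 ± 0.23 and Irf8, a macrophage lineage factor, of 0.24 ± 0.22. The receptors and Janus kinases that phosphorylate STATs were near the level of all genes, with 5 of 13 lower and a median of 0.01. In that list Il6ra, which encodes a chain of the interleukin 6 receptor, had a difference of 0.63 ± 0.21, Il10ra of -0.42 ± 0.24 and Csf2rb of 0.48 ± 0.29. The sensors, adaptors and kinases that activate IRFs had 9 of 16 lower and a median of -0.01. Neither median kept its sign, with -0.06 without WT 2 for the receptors and Janus kinases and 0.16 without KO 1 for the sensors. Their smallest unadjusted p-values belonged to Sting1, the adaptor of cytosolic DNA sensing, at 0.85 ± 0.38, Tlr7, a receptor of single-stranded RNA, at -0.28 ± 0.18, and Azi2 at 0.32 ± 0.20.

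The inhibitors of these pathways had 10 of 17 genes lower, beside 48.2% of all genes. Their median was -0.08 (-0.02 without WT 1 and -0.17 without WT 2). An unadjusted p under 0.05 was found for 5 of the 17, beside 9.34% of all genes. Usp18, which silences the type I interferon receptor, had levels of 9.46 on WT 1, 9.44 on WT 2, 8.67 on KO 1 and 8.58 on KO 2. Its groups lay far apart for their spread, with a difference of -0.82 ± 0.17 (limma adjusted p = 0.274). Trim21 had a difference of -0.71 ± 0.19. Of the 5, Pias2, an inhibitor of activated STATs, had the opposite sign (0.60 ± 0.19), and Cish (-1.07 ± 0.35) is also a Stat6 target. Socs3, the feedback inhibitor induced by Stat3, had levels of 11.96 on WT 1, 12.40 on WT 2, 11.54 on KO 1 and 11.27 on KO 2, a difference of -0.77 ± 0.23 (limma adjusted p = 0.411).

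Targets were read by the factor known for them. Of 14 type I interferon targets, 9 were lower, and the median was -0.11, with -0.03 without WT 1, -0.29 without WT 2, -0.06 without KO 1 and -0.28 without KO 2. Oas2, an RNA-activated antiviral enzyme, had levels of 10.077 on WT 1, 10.005 on WT 2, 8.74 on KO 1 and 9.14 on KO 2, a difference of -1.10 ± 0.21 (limma adjusted p = 0.270). Its relatives Oasl1 and Oasl2 had differences of -0.64 ± 0.31 and -0.44 ± 0.22, and probes of this family can read related genes. Among 17 targets of interferon gamma and Irf1, 7 were lower and the median was 0.02, with no settled sign, since it was 0.17 without WT 1 and -0.12 without WT 2. The values were -0.72 ± 0.28 for the GTPase Gbp3, 0.36 ± 0.22 for Psme2 and 0.25 ± 0.22 for Psmb9. Of 14 Stat3 targets, 12 were lower with a median of -0.12 (-0.18 without WT 1, -0.25 without KO 1 and -0.07 without KO 2), and beside Socs3 the smallest p-values were those of Myc (-0.50 ± 0.18) and Junb (-0.41 ± 0.22).

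Of 16 Stat6 targets, 10 were lower, with a median of -0.18 and the widest range of the lists, from -1.39 to 1.29. The median was -0.40 without WT 1, -0.29 without WT 2, -0.30 without KO 1 and -0.14 without KO 2. The lowest value was that of Alox15, a lipoxygenase that is also in the list of large peritoneal macrophage markers below. Chil3, a chitinase-like protein of alternatively activated macrophages, had a difference of 1.29 ± 0.31, the chemokine Ccl24 of -0.79 ± 0.23, and Cish, a cytokine-induced STAT inhibitor, of -1.07 ± 0.35. Of 5 targets of Irf5 and NF-kappaB, 4 were lower with a median of -0.33, with Il1b at -0.79 ± 0.20, Tnf at -0.41 ± 0.17 and Ccl5 at 0.46 ± 0.21. Relative to the median of all genes, the list medians kept their signs under cyclic loess and median scaling, except for the receptors and Janus kinases, which lay at 0.00 and -0.01.

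**Figure D4:**
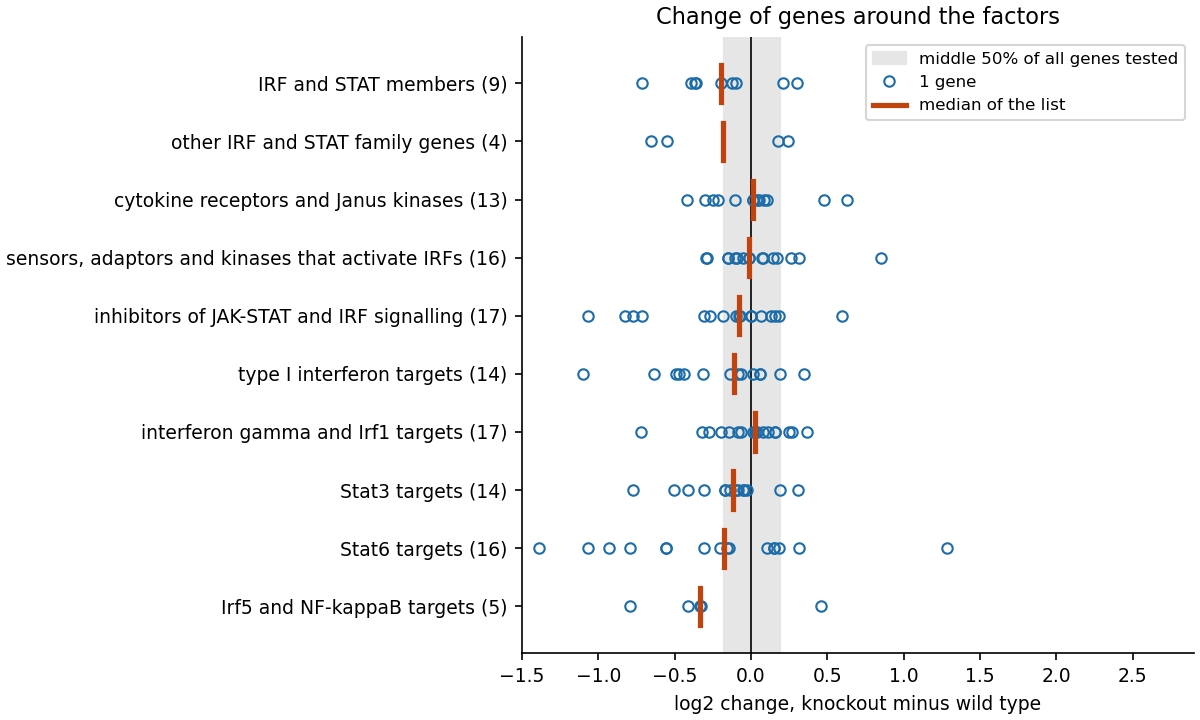
Log2 change, knockout minus wild type, of each tested gene in the 9 lists and of the members, with the number tested in parentheses, red bars for list medians and a grey band for the middle 50% of all genes tested. The medians run from -0.33 for targets of Irf5 and NF-kappaB to 0.02 for targets of interferon gamma and Irf1.

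On the arrays, the type I interferon targets followed the order of the factors only in part. Their median level, centred on each gene's mean, was 0.26 on WT 1, -0.14 on WT 2, -0.27 on KO 1 and -0.05 on KO 2, so WT 1 stood above the other 3. The members themselves had 0.17, -0.01, -0.06 and -0.13 in the same order of arrays. For Stat6 targets WT 2 was the highest, at 0.17, and KO 2 the lowest, at -0.18. All genes together had medians of 0.00 to 0.01 on each array.

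**Figure D5:**
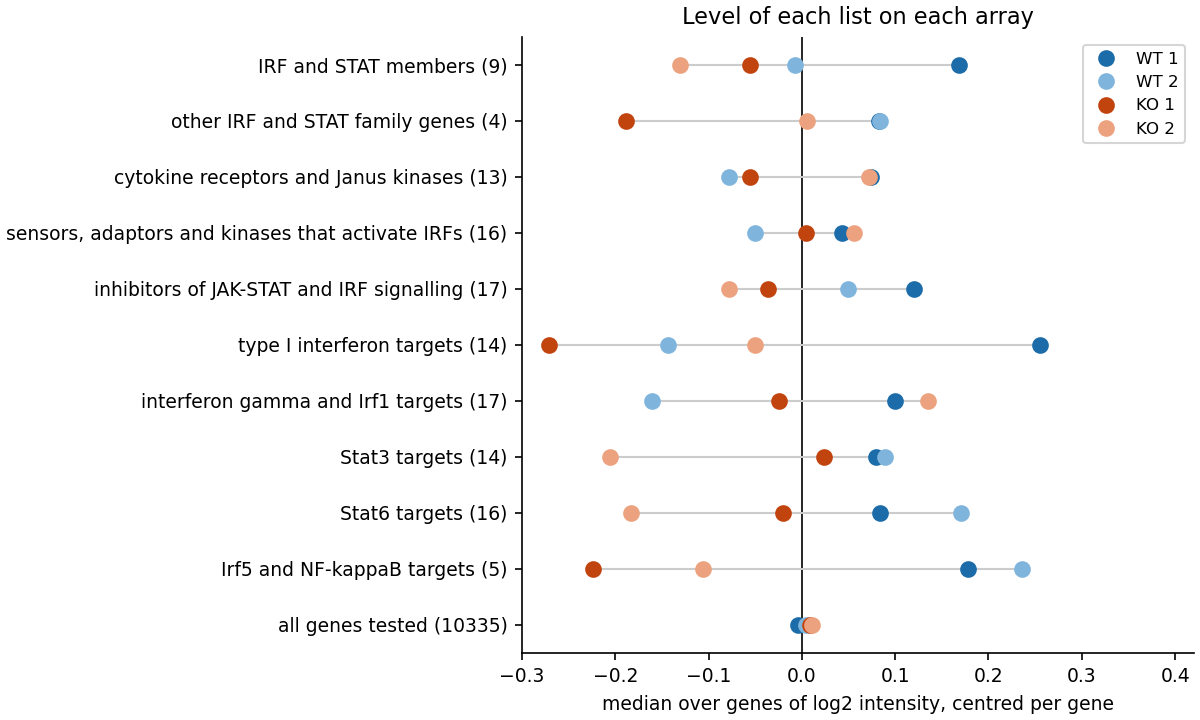
Median over genes of the log2 intensity centred on each gene's mean over the 4 arrays, for the members, the 9 lists and all genes tested, with the number of genes in parentheses. WT 1 is highest for the members and stands apart for the type I interferon targets, while both wild type arrays are high for targets of Irf5 and NF-kappaB.

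Genes were also divided by the letters of their promoters, leaving out the 9 members. Of 266 tested genes whose promoter held the ISRE core, 131 (49.2%) had a lower mean in knockout and the median difference was 0.01. Among the 6766 tested genes with a promoter in the table, 46.8% were lower and the median was 0.02. The 570 genes with the GAS core had a median of 0.02, and the 435 with its wider form of 0.00. The 615 genes with the TATA box had a median of -0.02, and 52.4% of them were lower. In 22.6% of the TATA box genes the groups did not overlap with the knockout lower, beside 18.0% of all genes with a promoter. Within the type I interferon targets, 7 of 13 with a promoter held the ISRE core. Of the 7, 5 had a lower mean, and the groups overlapped for each of the 7. Among targets of interferon gamma and Irf1, 8 of 14 held it and 4 of the 8 had a lower mean.

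Markers of the cells that could be in the samples were read beside these values, since in a bulk sample fewer cells of a type and less RNA per cell cannot be told apart. Of 10 genes of large peritoneal macrophages, the main resident cells of the cavity, 9 were measured. All 9 had a lower mean in knockout, beside 48.2% of all genes. The median was -0.93, which was -1.36 without WT 1 and -0.46 without WT 2. Their summed intensity was 36845 on WT 1, 48033 on WT 2, 28467 on KO 1 and 27218 on KO 2, and it was higher on WT 2 than on WT 1. General macrophage markers summed to 143405 on WT 1, 145898 on WT 2, 133337 on KO 1 and 125209 on KO 2 over 8 measured of 10. Of 7 markers of plasmacytoid dendritic cells, which hold Irf7 at rest, 3 were measured. Siglech, the defining marker of these cells, was not above background. The 3 summed to 4069 on WT 1, 4366 on WT 2, 3690 on KO 1 and 4089 on KO 2. Most of that was Tcf4, with a log2 level of 11.72 on WT 1 beside 8.92 for Ly6d and 7.65 for Cox6a2. All of these sums mainly follow the brightest genes of a list. The other lists were thin, with 5 of 8 B cell, 2 of 10 T and NK cell, 3 of 8 neutrophil, 3 of 8 mast cell and basophil, 3 of 7 dendritic cell and 4 of 8 small macrophage and monocyte markers measured, with medians of -0.74, 0.86, 0.49, -0.70, -0.23 and -0.20. These medians moved with single arrays. The B cell and mast cell medians were -0.29 and -0.12 without KO 1, and the T and NK cell median was 0.56 without WT 1. The neutrophil median was -0.19 without WT 1 and 1.42 without WT 2, the dendritic cell median -0.69 and 0.24, and the small macrophage and monocyte median 0.11 and -0.52. The genes with the smallest p-values in the lists of other cells went both ways within most lists. They were Itgax (2.07) and Plac8 (-1.20) for small macrophages and monocytes, Cd22 (0.93) and Ms4a1 for B cells, Lat (2.05) and Cd2 (-0.32) for T and NK cells, and Batf3 (0.96) and Cd209a (-0.93) for dendritic cells. For plasmacytoid dendritic cells they were Cox6a2 (1.49) and Ly6d (-1.15), and for neutrophils S100a8 (0.49) and Ltf, which was detected on 1 wild type array and both knockout arrays. For mast cells and basophils they were Cpa3 and Cma1, each detected on both wild type arrays and 1 knockout array, so that these values lie partly at background. Ms4a1 was below the detection limit in knockout, where it was at least 1.61-fold lower. Itgax, Cd22, Lat and Cox6a2, each with a higher mean in knockout, lie on chromosome 7, which also carries Anpep. Whether that position bears on their values was not tested. No eosinophil or mesothelial and fibroblast marker was measured, of 6 and 7. No marker passed by limma, with 15 of 40 list entries at an unadjusted p under 0.05, beside 9.34% of all genes. The part of these cells in the values of the factors was not tested.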

How the data were processed

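RNA of 4 samples was read on Illumina MouseWG-6 v2.0 BeadChips. The intensity table deposited by the authors holds average bead intensities without normalization between arrays, and beside each the deposited detection p-value. The authors also deposited quantile normalized intensities, made in GenomeStudio per the submitters' processing notes and the series text, and these served as an alternative. The sources used here do not say whether background had been subtracted.

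Intensities were corrected by normexp using the detection p-values (offset 16), quantile normalized and put on the log2 scale (neqc, limma 3.58.1, R 4.3.3). The 14881 probes detected at p under 0.01 on at least 2 of 4 arrays were kept. The brightest probe stood for a gene. Symbols came from the platform annotation (34885 probes with 1 symbol, 18 with several, 10378 with none) and were updated for 34807 probes by gene ID. Groups were compared with lmFit and eBayes and Benjamini-Hochberg adjustment over all rows. The fit was tested on simulated data. The number of arrays limits the precision.

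The members, the 9 pathway lists and the 11 marker lists were chosen with earlier results of these data known. Named genes were the members, Anpep, the 3 genes of each pathway list and 2 of each marker list of another cell type with the smallest p, and the 4 nearest profiles of the member with the smallest p and the largest change, Irf7 for both. Csf1r, Fcgr1, Mertk, Siglech, Tcf4, Pias2 and Alox15 were chosen after their values were seen.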

Additional observations from a re-analysis of the deposited data

How the results depend on the processing

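In each of the 15 alternatives 0 of the 9 factors passed, with an adjusted p of at least 0.112. Of 135 values of single members under them, 131 kept their sign. The 4 others were Irf3 (-0.11) and Irf5 (-0.031) with median scaling, Stat2 (0.081) without WT 1 and Stat6 (0.063) without KO 2. With median scaling, where all genes shifted by -0.33, the median of the members was -0.58, or -0.25 relative to all genes. Leaving out single arrays gave medians of -0.35 to -0.042, and differences of -0.47 to 0.081 for Stat2 and -0.26 to 0.063 for Stat6. For all genes, the 5 higher and 5 lower calls became 15 and 194 with median scaling (92.8% lower), 3 and 2 with dim probes left in (more rows tested) and 1 and 3 for probes detected on all 4 arrays (fewer rows tested). Lower calls were 8 without background correction, 8 with an offset of 50, 8 with the authors' values, 10 with an intensity trend and 9 when all kept probes were rows. Single arrays left out gave 3 to 7 higher and 1 to 4 lower calls, where the lone array of a group is assumed to vary like the other group. Elsewhere the cause was not tested. WT 1 and KO 1 share only a replicate number with no stated pairing (correlation of deviations -0.02 over 10335 genes). With the replicate number as a block, 6 genes were called higher and 7 lower, 0 members passed and their median was -0.20.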
